A study of Clarias macrocephalus with 14 samples.

Results

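In broadhead catfish (Clarias macrocephalus) sampled as whole fry, 49 of 18644 genes tested were kept as peaking at 3 days post fertilization (dpf, also written as the day). Besides reaching a minimum level at 3 dpf, each had its highest level there and at least a 2 times lower level at each of the 6 later ages examined. A gene is here a numeric Gene ID that covers 1 or more assembled transcripts, and its level is in CPM, counts per 1e+06 library counts, scaled between libraries by the trimmed mean of M-values (TMM). The members were selected on these levels. Their mean at 3 dpf was 20 CPM or more, both 3 dpf libraries lay above all 12 others, and the score, the 3 dpf mean plus 1 over the highest later mean plus 1, was 2 or more. Another 16 genes met all but the first of these criteria and are not members. The upper limit of 150 members was not reached, so all 49 are kept and are called by their rank of score, from member 1 with the highest score to member 49.

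RNA came from whole fry, sex unknown, at 3, 5, 13, 14, 16, 17 and 24 dpf, with 2 libraries per age and 14 in all. No group differed from another by genotype or treatment: age was the only labelled variable. The study it belongs to looked for genes of the air-breathing function, and these libraries profile expression during early life. RNA was depleted of ribosomal RNA rather than selected for poly(A) tails, so transcripts without a tail can also be counted. The labels do not say how many fry went into a library, nor whether replicate libraries had separate parents, rearing tanks or extractions. Each p-value therefore sets a difference between ages against the spread of these replicate libraries, estimated over all 7 ages together. That spread may be technical. A whole fry holds every tissue, and in such bulk RNA fewer cells of a type cannot be told apart from less RNA per cell.

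Broadhead catfish belong to the clariids, walking catfishes that breathe air with a suprabranchial organ above the gills. Newly hatched larvae live on yolk and begin to take food when the mouth and gut open, while the air-breathing organ forms later in larval life. In fish in general the first days after hatching are also a time of rapid organ formation. The deposited table does not pair its Gene IDs with names, so neither the role of a member nor the pathway it belongs to is given, and the identity of the tissue could not be checked against marker genes.

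The smallest library, replicate 2 of 24 dpf, held 1460853 counts and the largest, replicate 2 of 16 dpf, 8837320, while the 3 dpf libraries held 2389483 and 2394686. At 17 and 24 dpf the TMM factors lay between 0.391 and 0.657, and elsewhere between 1.22 and 1.41. A single count was worth 0.321 and 0.345 CPM on day 3 but 1.36 and 1.38 CPM on day 24, where low levels are therefore the least precise. Between the libraries of an age, the mean chi-square per gene was lowest at 16 dpf, 1.34, and highest at 24 dpf, 15.3, followed by 9.55 at 13 dpf. This value grows with depth as well as with the spread, and the 24 dpf pair had the highest despite the lowest totals. A p-value for a change into or out of 13 or 24 dpf rests on the spread pooled over all ages. It does not measure the spread of these pairs alone and may be too small.

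The members were a small part of the RNA. Together they held 0.999% ± 0.0181 (SD, n = 2) of all 3 dpf counts. At 5 dpf that share was 0.387% ± 0.0516, at 13 dpf 0.359% ± 0.0223, at 14 dpf 0.153% ± 0.00145 and at 16 dpf 0.259% ± 0.00765. At 17 dpf it was 0.0639% ± 0.00116 and at 24 dpf 0.0971% ± 0.00157. The 3 dpf libraries lay above the rest, which the choice of members fixes. These are shares of all counts, without TMM scaling, on which the order of the later ages depends. With it the members summed to 2493 and 1976 CPM on day 24, above the 1255 and 1258 of day 14. On day 16 the scaled sums were 1912 and 2013 CPM, and on day 17 1149 and 993. Member 42 alone made up 39.1% of the members' summed 3 dpf CPM.

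The 3 dpf means ran from 21.2 to 3114 CPM with a median of 66.5. Of the 49 members, 16 were above 100 CPM and 17 below 50 CPM. CPM is not corrected for transcript length, so these values order the members by counts and not by molecules. Scores ran from 2.01 to 7.15 with a median of 2.44, so most members exceeded their next age by little more than the rule asked. Just inside the limit, the scores of members 47, 48 and 49 were 2.052, 2.039 and 2.011. Just outside it, the next 3 genes that met the other criteria had 1.998, 1.998 and 1.97. The first of these had 54.6 CPM on day 3 against 26.8 at its next highest age, beside 128 against 61.7 CPM for member 47.

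**Figure D1:**
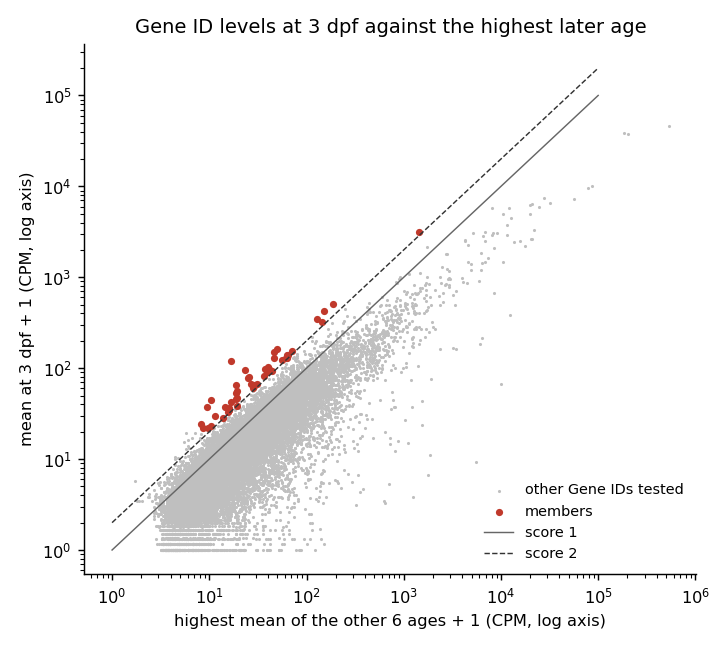
Mean level at 3 dpf plus 1 (vertical axis) against the highest mean of the other 6 ages plus 1 (horizontal axis), in CPM on log axes, for all 18644 genes tested; red points are the 49 members, grey points the other genes, and the lines mark scores of 1 and 2. The members lie on or above the line of score 2, apart from the bulk of the genes, and member 1 lies farthest above it with a score of 7.15.

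Fewer genes met these criteria for 3 dpf than for the neighbouring age. Of the 6311 Gene IDs with a 3 dpf mean of 20 CPM or more, 545 had both 3 dpf libraries above all others, and 496 of these scored under 2. With the same criteria applied to each age in turn, 49 Gene IDs peaked at 3 dpf, 324 on day 5, 53 on day 13, 61 on day 14, 44 on day 16, 103 on day 17 and 349 on day 24. The highest score was 7.15 for 3 dpf against 152 for 5 dpf and 23.1 for 24 dpf. These counts are descriptions with no test, since each was selected on the levels it describes.

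Member 1, Gene ID 103911589, had the highest score. It covers 5 transcripts and stood at 95.9 and 143 CPM in the 3 dpf libraries. Its later levels were 7.11 and 7.8 CPM on day 5, 1.44 and 2.06 on day 13, 16.6 and 15.1 on day 14, 7.18 and 6.98 on day 16, 5.9 and 11 on day 17 and 0 and 4.13 on day 24. Its 3 dpf mean, 119 ± 33 CPM, was 16 times that of 5 dpf and 7.54 times that of 14 dpf, the next highest age. Among the later ages it did not run down evenly: both 14 dpf libraries were above every other library from 5 to 24 dpf, and the 13 dpf libraries were below those of 5, 14, 16 and 17 dpf. The transcript highest on day 3 had only 0.341 and 0.471 CPM on day 14. Another had 16.2 and 14.6 CPM on day 14 and 0.321 and 0.689 on day 3. In the edgeR fit of the summed level, member 1 fell by 2.1 on the log2 scale from 5 to 13 dpf (adjusted p = 0.000203). It rose by 3.18 from 13 to 14 dpf (adjusted p = 2.47e-07) and fell by 1.16 from 14 to 16 dpf (adjusted p = 0.000485). The 2 libraries at 24 dpf held 0 and 3 counts of it, and its change of -1.84 from 5 to 24 dpf missed the threshold narrowly (adjusted p = 0.0566). It passed under 12 of 25 alternatives, by limma-voom for example at -2.05 (adjusted p = 0.0353), with adjusted p from 0.00012 to 0.452. It rests on which 24 dpf library is kept: without replicate 1 it was -0.86 (adjusted p = 0.452), and without replicate 2, which leaves 0 counts at that age, it passed (adjusted p = 0.0223) at a fitted size that is no bound.

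Member 2, Gene ID 108275785, covers 4 transcripts, and its 3 dpf libraries stood 2.06-fold apart, at 28.2 and 58.2 CPM. It had 9.16 and 7.45 CPM on day 5, 11.3 and 7.72 on day 13, 2.56 and 2.2 on day 14, 0.706 and 1.38 on day 16, 4.83 and 3.66 on day 17 and 5.43 and 1.38 on day 24. The 5 and 13 dpf libraries overlapped and lay above those of every age after them. By edgeR it fell by 2.01 on the log2 scale from 13 to 14 dpf (adjusted p = 0.000331) and rose by 1.93 from 16 to 17 dpf (adjusted p = 0.0194).

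Member 16, Gene ID 108280774, and member 42, Gene ID 108265655, followed other courses. Member 16 was named because it rose from 5 to 24 dpf with libraries that did not overlap, and it was the only member to do so. Its levels were 630 and 374 CPM on day 3, 91.5 and 110 on day 5, 130 and 237 on day 13, 65.2 and 71.7 on day 14, 19.5 and 18.3 on day 16, 42.9 and 32.4 on day 17 and 205 and 165 on day 24. The libraries of 13 and 24 dpf were the highest of the later ages and those of 16 dpf the lowest, an order that edgeR called at every consecutive step. From 5 to 24 dpf it rose by 0.88 on the log2 scale (adjusted p = 0.00586). The call was lost without replicate 1 of 5 dpf (0.74, adjusted p = 0.0559) or replicate 1 of 24 dpf (0.7, adjusted p = 0.0973). The rise turned to a fall, -0.7 with an adjusted p of 0.0182, when library totals were used without TMM factors. It also turned for its transcript with the most counts over all 14 libraries, taken alone, at -10.68 with an adjusted p of 1.13e-06. That fitted size comes from a transcript with 0 counts in both 24 dpf libraries and is not a bound.

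Member 42 was chosen for description after its values were seen, as the member with the most counts. It covers 11 transcripts and had 2948 and 3281 CPM on day 3, 1596 and 1187 on day 5, 1619 and 1269 on day 13 and 503 and 508 on day 14. It then had 1012 and 1076 CPM on day 16, 263 and 209 on day 17 and 1422 and 890 on day 24. The later ages alternated: 14 and 17 dpf lay below all others without overlap, and 24 dpf overlapped with 5, 13 and 16 dpf. By edgeR it fell by 1.52 on the log2 scale from 13 to 14 dpf (adjusted p = 2.89e-06), rose by 1.05 from 14 to 16 dpf (adjusted p = 0.000417), fell by 2.14 from 16 to 17 dpf (adjusted p = 3.64e-08) and rose by 2.29 from 17 to 24 dpf (adjusted p = 9.7e-08). Its change from 5 to 24 dpf, -0.27, did not pass the test (adjusted p = 0.294), and without replicate 2 of 24 dpf it was 0.01 (adjusted p = 0.97). It passed under 3 of 25 alternatives. These included unscaled library totals at -1.87 (adjusted p = 6.14e-10) and the fit without replicate 1 of 24 dpf at -0.66. The third was its transcript with the most counts over all 14 libraries, taken alone, at -0.91 (adjusted p = 0.000841). That transcript is not the one highest on day 3, which had 264 and 179 CPM on day 5 and 284 and 193 on day 24.

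**Figure D2:**
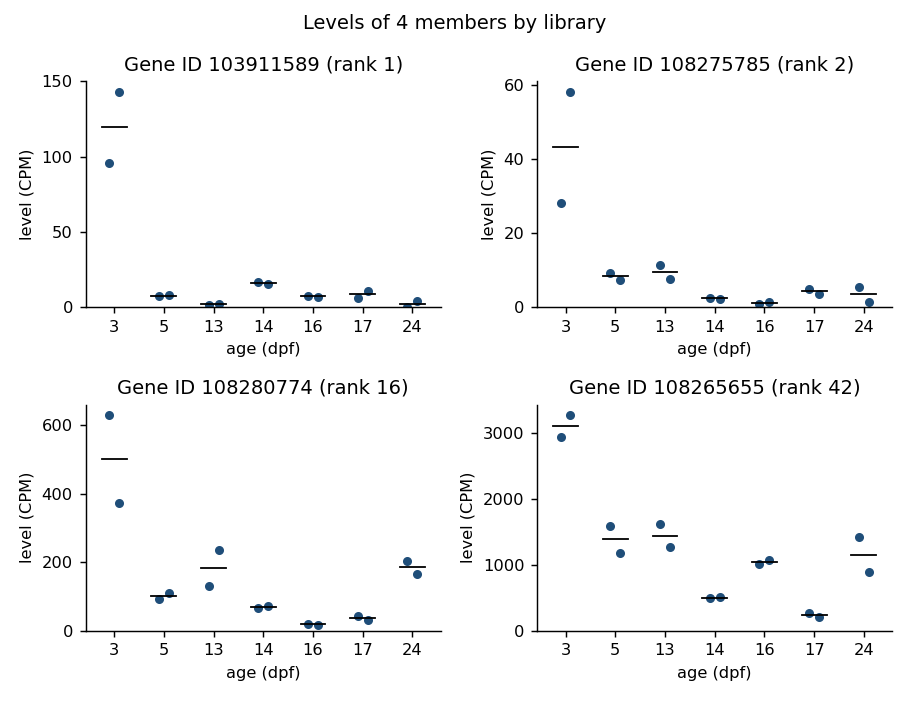
Level in CPM on linear axes that start at 0, against age in days post fertilization, for members 1, 2, 16 and 42; each point is a library and each bar the mean of the 2 libraries. Both 3 dpf points are the highest in every panel, while the later ages differ in order: member 1 has a second, lower maximum at 14 dpf and members 16 and 42 are higher at 24 dpf than at 17 dpf.

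After 3 dpf the members kept a minor part of their level, and that part differed widely among them. At 5 dpf they kept 6.25 to 47.9% of the 3 dpf mean, with a median of 35.1%. The median was 21.1% on day 13, 16.2% on day 14, 24.3% on day 16, 18.4% on day 17 and 18.5% on day 24. The rule sets the upper end of these ranges below 50% but leaves the order of the later ages free. The second highest age was 5 dpf in 24 members, 13 dpf in 8, 14 dpf in 3, 16 dpf in 2, 17 dpf in 8 and 24 dpf in 4. The lowest age was 13 dpf in 12 members, 24 dpf in 12, 14 dpf in 11, 17 dpf in 7, 16 dpf in 5 and 5 dpf in 2. No single later course therefore described the members.

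**Figure D3:**
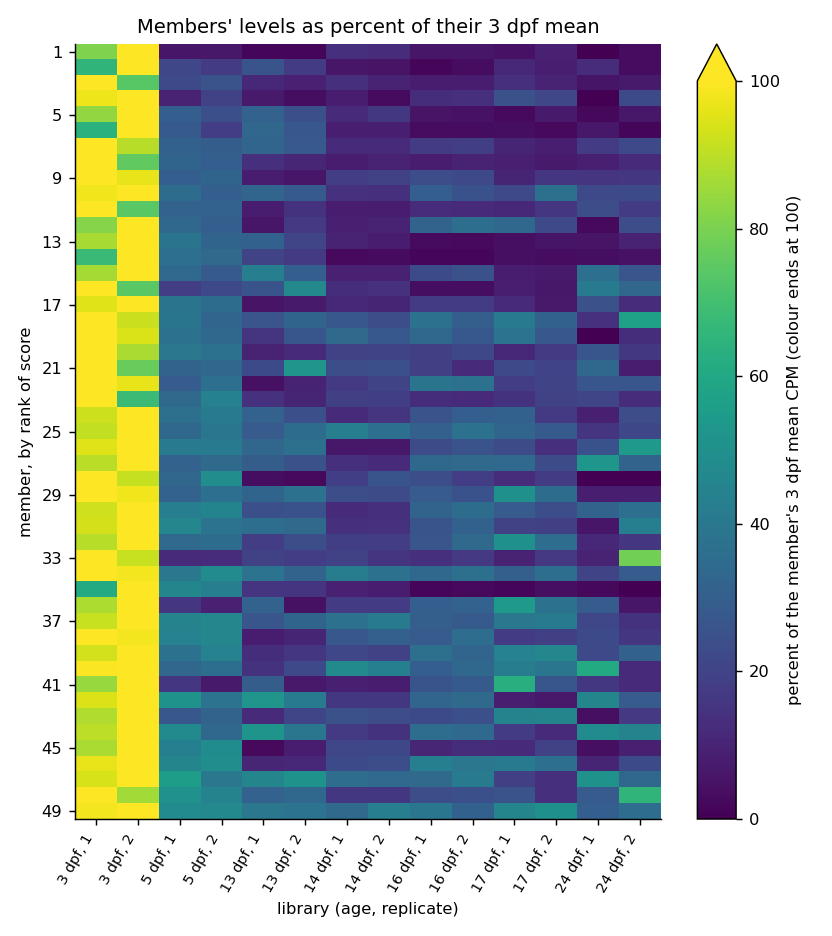
Level of each of the 49 members, in order of score from the top, in each of the 14 libraries as a percent of the member's 3 dpf mean, with a colour scale that ends at 100%. Past the 3 dpf columns the order of the columns differs from member to member: the medians of the later ages lie between 16.2 and 35.1%, and the 24 dpf libraries differ by over 1.5-fold, or by a zero, in 27 members.

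The differences among the 6 later ages do not enter the score except through the highest of them, and they were tested by edgeR's quasi-likelihood test with Benjamini-Hochberg adjustment over all 18644 genes. Of the 49 members, 46 differed among the ages from 5 to 24 dpf. This is near the background, since 87.9% of all genes did. The 3 members not called were 18, 25 and 49. Member 49, for example, had 13.1 and 12.8 CPM on day 5 and between 8.14 and 13.6 CPM in all 10 libraries from 13 to 24 dpf.

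From 5 to 13 dpf, 26 members fell and 1 rose, where 28.4% of all genes fell and 25.1% rose. As shares of the members that is 53.1% and 2.04%. The members' median change was -0.57 on the log2 scale against -0.03 over all genes. The rule allows a member to be high at 5 dpf or at 13 dpf alike, up to the same limit. The largest falls were those of member 28, from 8.69 to 0.668 CPM (log2 -3.59, adjusted p = 1.34e-06), and of member 45, from 14.7 to 1.7 CPM (-3.17, adjusted p = 9.69e-08). Member 17 fell from 37.6 and 34.7 CPM on day 5 to 5.35 and 7.2 on day 13, with no overlap (-2.54, adjusted p = 1.32e-09). The 1 member that rose was member 16.

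From 5 to 24 dpf, 24 members fell and 2 rose, 49% and 4.08% of the members, against 27.8% and 21.6% of all genes. The median change was -0.85, beside -0.32 over all genes. Without replicate 1 of 24 dpf the members called numbered 16 instead of 26, of which 15 fell. In both directions together that was 32.7% of the members beside 36.4% of all genes, where with all libraries it was 53.1% beside 49.4%, so the number of members called was near the background in either case. With unscaled library totals all 46 members called were lower, 93.9% of the members, but under that scaling 79.4% of all genes were called and their median moved to -1.89. Member 14 had 288 and 563 CPM on day 3, 156 and 147 on day 5, 87.8 and 73 on day 13, 11.3 and 11.9 on day 14, 6.71 and 5.34 on day 16, 17.2 and 13.6 on day 17 and 16.3 and 20.7 on day 24. The libraries of neighbouring ages did not overlap down to 16 dpf, and those of 17 and 24 dpf were above 16 dpf. It fell by 3.03 from 5 to 24 dpf (adjusted p = 8.44e-08). Of its mean of 151 CPM on day 5, 80.7 CPM came from the transcript highest on day 3. Its other transcripts summed to 5.37 CPM on day 3 and to 70.7 CPM at their highest later age. The decline of member 14 is thus not that of 1 transcript. Member 35 had 75.7 and 172 CPM on day 3 and means of 55, 18.6, 10.3, 2.67, 3.42 and 1.36 CPM at the ages that followed. Its means declined at each age to 16 dpf and stayed low, with a fall of 5.3 from 5 to 24 dpf (adjusted p = 5.73e-06), although replicate 2 of 24 dpf held 0 counts. Member 28 had 0 counts in both 24 dpf libraries. Set against the floor that 3 counts in the pair of libraries give, 2.05 CPM, its level at 24 dpf was at least 4.23-fold lower than its 8.69 CPM on day 5.

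The other member that rose from 5 to 24 dpf was member 33, by 1.81 (adjusted p = 0.000793). Its libraries were 17.2 and 18 CPM on day 5 and 13.6 and 110 on day 24. They overlapped, since replicate 1 of 24 dpf was below both 5 dpf libraries and replicate 2 above them. The adjusted p rests on the spread pooled over all ages and not on that of this 24 dpf pair.

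Both 5 dpf libraries lay above all 10 libraries of 13 to 24 dpf in 17 members, where 15.5% of all genes showed this. The 17 were members 3, 8, 9, 11, 13, 14, 17, 20, 23, 24, 28, 30, 35, 37, 38, 45 and 46. In the other 32 members at least 1 library from 13 to 24 dpf reached the lower 5 dpf library.

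Around 14 dpf the members moved in opposite directions. From 13 to 14 dpf 21 members fell and 11 rose, 42.9% and 22.4% of the members, against 24.3% and 23.5% of all genes. The median change was -0.23 beside 0.01 over all genes. From 14 to 16 dpf 18 rose and 9 fell, 36.7% and 18.4% of the members, against 17.9% and 15.7%, with medians of 0.16 and -0.01. Members 7, 10, 15, 24, 26, 27, 30, 31, 41, 42 and 44, 11 in all, fell at the first of these steps and rose at the second. These 11 of the 49 members are a larger share than the 11.4% of all genes that did so, a difference that was not tested. Member 26, the one with the largest rise at the second step, went from 33.8 CPM on day 13 to 6.22 on day 14 and 23.6 on day 16. Its fall was -2.43 (adjusted p = 7.32e-09) and its rise 1.92 (adjusted p = 3.97e-07), both by edgeR. Members 1, 37 and 45 took the opposite course, up and then down, a smaller share than the 8.53% of all genes. Member 37 had 40.9 and 48.9 CPM on day 13, 56.5 and 62.9 on day 14 and 46 and 43.1 on day 16. Its 14 dpf libraries lay above the others, but the changes were small, 0.42 and -0.42.

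The last 2 steps moved fewer members. From 16 to 17 dpf 6 rose and 9 fell, 12.2% and 18.4% of the members, below the 23.2% and 23.6% of all genes. The medians were -0.03 for the members and 0 for all genes. With unscaled totals 35 members fell and 0 rose at this step, 71.4% of the members, which is the background there, since 71.7% of all genes were called and their median was -1.12. From 17 to 24 dpf 9 members rose and 6 fell, 18.4% and 12.2% of the members, against 13.5% and 11.8%, with medians of -0.03 and -0.09. Unscaled totals turned that split to 5 rising and 13 falling, 36.7% of the members called beside 28.6% of all genes, whose median was -0.54. Changes into 17 and 24 dpf are thus relative to the TMM scaling, whose factors were lowest at these ages. With upper-quartile scaling 9 rose and 9 fell into 17 dpf, where 47.6% of all genes were called. Into 24 dpf 8 rose and 8 fell, beside 25.8% of all genes. By limma-voom that step had 7 and 7, beside 24.2%. The opposite direction led from 17 to 24 dpf in 1 setting, unscaled totals, and from 16 to 17 dpf in 0.

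Members 7, 15, 42 and 44 shared a course over 4 steps: they fell into 14 dpf, rose to 16 dpf, fell to 17 dpf and rose to 24 dpf, each step called by edgeR, as 1.57% of all genes did. Member 15 had 150 and 104 CPM on day 13, 32.8 and 32.8 on day 14, 79.1 and 86.6 on day 16, 27.9 and 25.1 on day 17 and 128 and 92.3 on day 24. The libraries of neighbouring ages did not overlap at any of these steps. Its rise from 17 to 24 dpf was 2.05 (adjusted p = 2.49e-06), while its change from 5 to 24 dpf was 0.01 (adjusted p = 0.975). Member 44 had means of 58.7, 20.2, 45.1, 18.9 and 60.1 CPM at the same 5 ages. This grouping was made after the values were seen and carries no test.

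Over the 5 consecutive steps from 5 to 24 dpf, 6 members were called at none, 6 at 1, 13 at 2, 14 at 3, 8 at 4 and 2 at all 5. Over all genes 13.4% were called at none of these steps, 23.2% at 1, 25.8% at 2, 21.5% at 3, 12.4% at 4 and 3.6% at all 5. The difference between these distributions was not tested. The 2 called throughout were members 16 and 37. The 6 called at none were members 18, 21, 25, 34, 36 and 49.

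**Figure D4:**
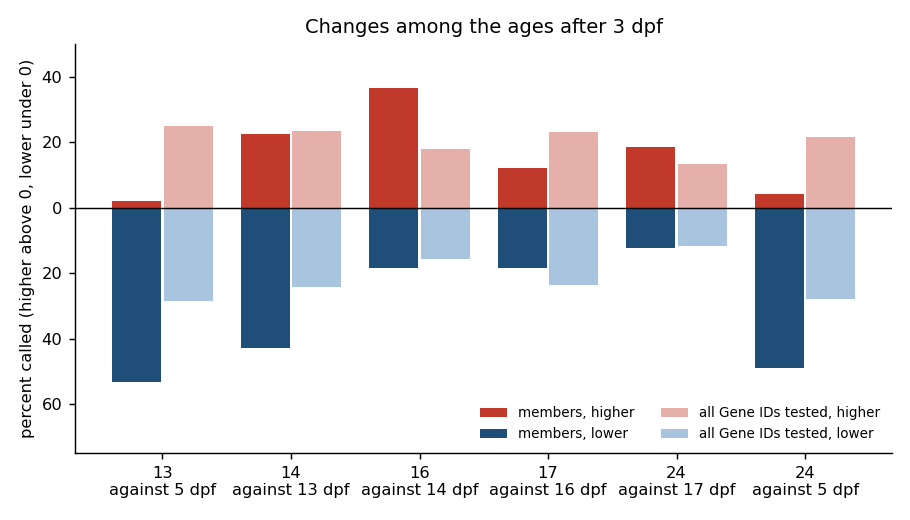
Percent of the 49 members (dark bars) and of all 18644 genes tested (light bars) that were higher, drawn above 0, or lower, drawn below 0, at an edgeR adjusted p under 0.05, for the 5 consecutive steps after 5 dpf and for 24 against 5 dpf. The members' share of falls is above that of all genes from 5 to 13 dpf (53.1 against 28.4%) and from 5 to 24 dpf (49 against 27.8%), and their share of rises is above it from 14 to 16 dpf (36.7 against 17.9%).

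Low counts and the difference between the replicate libraries limit what can be said of the oldest fry. Over both 24 dpf libraries the members had a median of 16 counts, and 16 members had fewer than 10, while over both 3 dpf libraries the median was 400 and the lowest 128. A zero in a 24 dpf library was found in members 1, 4, 19, 28 and 35. The libraries of 24 dpf differed by over 1.5-fold, or by a zero, in 27 members, against 14 members at 17 dpf, 12 on day 13, 4 on day 5, 2 on day 16 and 1 on day 14. The share over all genes is not given for these ages, so the order may not be particular to the members. Over all genes too, the mean chi-square between replicates was highest at 24 dpf, 15.3, and then at 13 dpf, 9.55. What set the order was not tested.

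The 3 dpf replicates were less alike in the members than in other genes of such levels. The fold between the libraries had a median of 1.22 and reached 2.27 in member 35. It exceeded 1.5 in 10 members, or 20.4%, where 3.14% of the Gene IDs with a 3 dpf mean of 20 CPM or more exceeded it and their median fold was 1.12. Members 2, 6, 14 and 35 were the higher ones in replicate 2. Members 3, 8, 11, 16, 21 and 23 were higher in replicate 1. The 3 dpf libraries entered the rule, so these values describe the members chosen and are not a test.

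The members also differed in the transcripts behind each Gene ID. A member covers a median of 5 transcripts, as does a tested Gene ID in general, 3 members cover 1 and member 16 covers 116. In the 46 members with several, the leading transcript at 3 dpf held 28.8 to 100% of the member's 3 dpf level, with a median of 93.8%, and over 50% in 44. In all 49 members the leading transcript was itself highest in both 3 dpf libraries. This follows largely from the rule, since the leader was chosen at 3 dpf and mostly held the bulk of the level. Taken alone, the leader scored 2 or more in 46 members. In members 46, 48 and 49 it scored 1.39, 1.93 and 1.73. In 40 members the same transcript led over the later ages too, with 28.7 to 100% of the level there and a median of 93.4%. In the other 9, members 1, 3, 8, 11, 16, 21, 23, 33 and 42, another transcript led at the later ages.

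In 8 of those 9, all but member 42, the leader's share at the later ages was under 1/4 of its share at 3 dpf. The 3 dpf leader of these 8 held 73.6 to 91.8% of the member's level at 3 dpf and 3.83 to 15.5% at the later ages. At 5 dpf it had 0 to 11.2% of its 3 dpf level, beside a median of 34.7% in the 40 members with a constant leader. The 8 were set apart by this leader's share at the later ages, so its low later levels follow in part from that choice. The level of the remaining transcripts was highest at 3 dpf in 1 of the 8, member 8, with 18.4 CPM against 17.5 at its highest later age. It was so in 16 of the 40 members with a constant leader, 3 of which cover a single transcript. For these 8 the level summed over the later ages thus belongs mostly to transcripts other than those that peaked. In member 42 the leader held 28.8% on day 3 and 17% at the later ages. Its remaining transcripts were also highest on day 3, 2219 CPM against 1185.

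Member 16 is an example. Its leading transcript had 594 and 325 CPM on day 3, 36.2 and 47.6 on day 5, 0.411 and 1.54 on day 13, 7.85 and 10.1 on day 14, 1.18 and 1.72 on day 16, 5.37 and 2.62 on day 17 and 0 in both libraries of 24 dpf. After 5 dpf it did not exceed 10.1 CPM in any library. The other transcripts of the same Gene ID summed to 42.8 CPM on day 3 and to 185 CPM at their highest later age, so the high 13 and 24 dpf levels of member 16 came from them. One of them had 65.1 and 77.2 CPM on day 24 against 0.642 and 6.55 on day 3, and another had 60.6 and 58.1 CPM on day 13 and 0 on day 3. How transcripts were assigned to Gene IDs is not given in the sources used here, so the summed level of a Gene ID with this many transcripts is uncertain.

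The leading transcripts of 7 of the 8 were 1.61 to 2.22 times higher in replicate 1 of 3 dpf than in replicate 2. That of member 23, for example, had 77.3 against 34.8 CPM, and that of member 33 had 135 against 71.3. Member 1 was the exception, with 89.5 against 130 CPM, a ratio of 0.691. None of the 40 members with a constant leader exceeded 1.5 in that direction: their ratios were 0.442 to 1.37, with a median of 0.88. Over all transcripts with a 3 dpf mean of 20 CPM or more, 2.25% were over 1.5 times higher in replicate 1, and the median ratio was 0.949. All 6 members that were over 1.5-fold higher in replicate 1, 3, 8, 11, 16, 21 and 23, were among the 8, and members 2, 6, 14 and 35, higher in replicate 2, had a constant leader. What differed between these libraries besides the number is not labelled, and its part in the result was not tested. The leaders of members 11 and 16, with ratios of 1.86 and 1.83, have assembly names that differ only in their last parts. They may therefore not be separate cases. The 8 members were set apart after the values were seen.

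**Figure D5:**
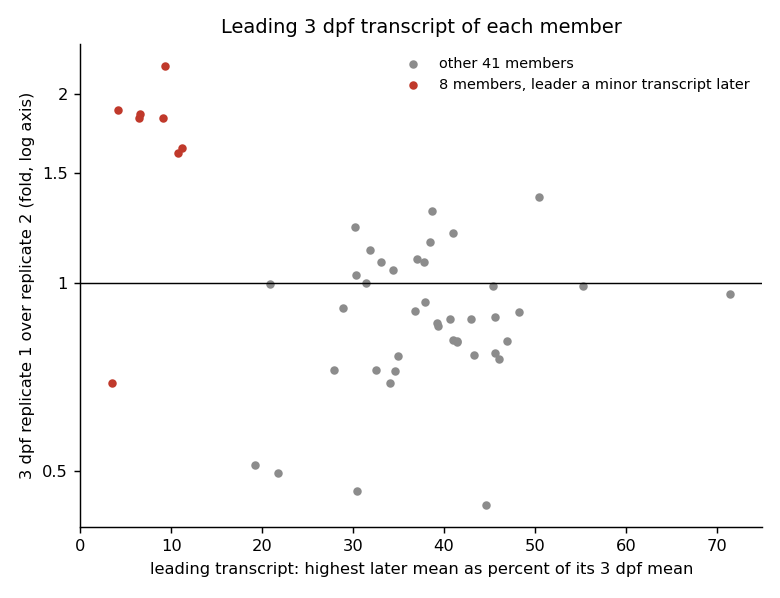
For the leading 3 dpf transcript of each of the 49 members, the ratio of its level in replicate 1 to that in replicate 2 of 3 dpf (log axis) against its highest later mean as a percent of its 3 dpf mean. The 8 members whose leader was a minor transcript later, in red, lie at the left, 7 of them at ratios of 1.61 to 2.22, while the ratios of the 40 members with a constant leader lie between 0.442 and 1.37. The 8 were set apart by later levels, so their place on the horizontal axis follows in part from that choice.

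The later steps of the 8 members and of the other 41 were counted apart. From 5 to 13 dpf 1 of the 8 rose and 5 fell, and of the 41 0 rose and 21 fell. Over all genes 25.1% rose and 28.4% fell. From 13 to 14 dpf 1 of the 8 rose and 1 fell, and of the 41 10 rose and 20 fell, beside 23.5% and 24.3% of all genes. From 14 to 16 dpf 0 of the 8 rose and 2 fell, and of the 41 18 rose and 7 fell, beside 17.9% and 15.7%. From 16 to 17 dpf 1 of the 8 rose and 0 fell, and of the 41 5 rose and 9 fell, beside 23.2% and 23.6%. From 17 to 24 dpf 2 of the 8 rose and 0 fell, and of the 41 7 rose and 6 fell, beside 13.5% and 11.8%. Both members that rose from 5 to 24 dpf, 16 and 33, were among the 8, of which 3 fell. The 8 were set apart by transcript levels at the later ages, so the place of the risers among them is not a separate result. Of the other 41, 0 rose and 21 fell, beside 21.6% and 27.8% of all genes. The 41 are most of the members, so they also hold most of the falls. The median log2 change from 5 to 13 dpf was -1.29 in the 8 and -0.47 in the 41. From 5 to 24 dpf it was -0.93 and -0.85. No test compared the 41 with the 8.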

How the data were processed

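Whole fry of 7 ages were measured in 14 libraries, grouped by the age in the labels. The values are expected counts per assembled transcript, deposited by the authors without scaling to a common total. Trimmomatic 0.36, CASAVA 1.9.1, RSEM, FastQC and DESeq2 appear in the submitters' processing notes, with no role or order. RSEM shares reads among similar transcripts, so levels of near-identical copies are uncertain. An aligner, a genome build and the use of strand were not given in the sources used here.

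Expected counts were summed over the transcripts of each all-digit Gene ID and rounded to whole numbers. Of 172513 transcripts, 166841 had such an ID, and they held 98.5 to 99.6% of a library's counts. The filterByExpr filter (minimum count 10) kept 18644 of 23837 Gene IDs. A single edgeR 4.0.16 quasi-likelihood fit in R 4.3.3 (TMM, age as the only term, all 14 libraries) gave the tests, called at a Benjamini-Hochberg adjusted p under 0.05. Every contrast with 3 dpf was used by the rule and is described without a test. The members and lists were chosen with earlier results of these data known. Gene lists by symbol could not be matched, since the files do not pair IDs with names. Gene IDs are therefore printed for the 2 members of highest score and for those with the largest fitted rise from 5 to 24 dpf (adjusted p under 0.05, libraries not overlapping, mean of at least 5 CPM at 24 dpf). Only 1 member was eligible for the 2 places of the second kind, and member 42 was added after its values were seen.

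Alternatives were other scalings, filters, limma-voom 3.58.1, DESeq2 1.42.0, the 12 later libraries alone, a replicate block and each library left out. Another took, for each Gene ID, only the transcript with the most counts over all 14 libraries, which need not be its leader at 3 dpf. The fit was checked on simulated counts. Replicate pairs differed by more than counting noise at every age, so none was treated as 1 library. Floors of 3 counts cover counting error only.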

Additional observations from a re-analysis of the deposited data

How the results depend on the processing

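Of 301 alternative values for the counts and the 4 members named, 275 kept their direction and their side of the threshold, or stayed within 1.5 times the count. A count was judged by its total, whatever its split into rises and falls. Library totals without TMM factors, chosen after seeing the data, moved 3 counts: 35 members were called from 16 to 17 dpf, 46 from 5 to 24 dpf, and 109 Gene IDs met the rule, 45 of them members. They also reversed the change of member 16 from 5 to 24 dpf to -0.7, and its transcript with the most counts, taken alone, gave -10.68. The members called from 17 to 24 dpf, a total counted as kept, turned to 5 rising and 13 falling with unscaled totals, where 28.6% of all genes were called. Leaving out 1 library at a time gave 16 to 28 members called from 5 to 24 dpf, the lowest without replicate 1 of 24 dpf. It gave 44 to 46 called over the later ages, 24 to 28 from 5 to 13 dpf, 27 to 33 from 13 to 14 dpf, 19 to 33 from 14 to 16 dpf, 12 to 18 from 16 to 17 dpf and 11 to 18 from 17 to 24 dpf. The share of all genes called also changed with the library left out, so these ranges are not particular to the members. Between 46 and 59 Gene IDs met the rule in these runs, and they were not always the same ones. Without replicate 2 of 3 dpf 39 of the 46 were members, and without replicate 1 of 3 dpf 43 of the 59. With only the transcript with the most counts of each Gene ID, 61 met it, 40 of them members. Without the 24 dpf libraries, also chosen after seeing the data, 70 met it, including all 49 members. With an age fewer the rule asks less of a gene, and the filter and the scaling were redone as well. The cause of these shifts was not tested.

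No broad pairing by replicate number was seen. Over 21 pairs of ages, same-numbered libraries had deviations from their group means that correlated at -0.066 to 0.052. These values cannot decide whether such libraries were paired, since a difference in few genes would hardly move them. With the replicate block 45 members were called over the later ages, 26 from 5 to 13 dpf, 32 from 13 to 14 dpf, 27 from 14 to 16 dpf, 15 from 16 to 17 dpf, 14 from 17 to 24 dpf and 27 from 5 to 24 dpf. In the same order, the shares of all genes called were 87%, 52.5%, 46.7%, 32.4%, 46%, 24.4% and 48.8%. The change of member 1 from 5 to 24 dpf, -1.84 without the block, passed with it at -1.86 (adjusted p = 0.0406). The 24 dpf libraries had the smallest totals, and 16 members had fewer than 10 counts over them, which limits calls at that age.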

Other observations

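The rule was also applied to single transcripts in place of Gene IDs. It was met by 102 transcripts of 93 Gene IDs, of which 49 transcripts lay in 45 of the members and 53 in other Gene IDs. They were split at the gap between neighbouring scores that was widest as a ratio: 25 transcripts scored 7.29 or more and the other 77 scored 5.15 or less. As differences, gaps among the highest scores were wider, such as that from 19.7 to 14.9. Of the 25, 18 were not in a member, because other transcripts of their Gene ID were high at other ages. The 25 had 0 to 11.2% of their 3 dpf level at 5 dpf, with a median of 6.68%, and 21 of them had 0 counts at 24 dpf. The 77 had a median of 32% at 5 dpf, and 3 had 0 counts at 24 dpf. The score limits every later mean, so these differences between the 25 and the 77 follow in large part from the split. A single count was worth 1.36 and 1.38 CPM on day 24, so 0 counts there can hide a low level. In replicate 1 of 3 dpf, 24 of the 25 were higher than in replicate 2, 23 of them by over 1.5 times, with a median ratio of 1.73. Of the 77, 1 was higher by that much, and their median ratio was 0.852. Among the 25, the leader of member 33 and a transcript outside the members have assembly names that differ only in their last parts. Not all of the 25 may therefore be separate cases. The split into 25 and 77 was taken from the values and carries no test, and what the 3 dpf libraries differ in was not tested.

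Gene IDs made of letters and digits were outside the rule. Of these, 17 had a 3 dpf mean of 20 CPM or more, and 0 met the other criteria.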
